A study of Mus musculus with 18 samples.

Results

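The G1 cyclins and their inhibitors were followed in mouse embryonic stem (ES) cells and adult germline stem cells, before and after differentiation. The set held 9 genes, which are the D-type cyclins Ccnd1, Ccnd2 and Ccnd3, the E-type cyclins Ccne1 and Ccne2, and the inhibitors Cdkn1a, Cdkn1b, Cdkn2a and Cdkn2b. A gene entered through probe sets that the platform annotation assigned to its symbol alone, and where it had several, the one with the highest mean over the 18 arrays was used. In this way 8 of the 9 genes were measured, among 19938 genes in all. The Cdkn1a probe set also carries the symbol 4930567H12Rik, so no value is given for Cdkn1a, which encodes p21.

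Total RNA was hybridised to Affymetrix Mouse Gene 1.0 ST arrays in 6 groups of 3 biological replicates. The groups were differentiated adult 129SV cells, differentiated ES 129SV cells, undifferentiated adult and ES cells with the background Stra8-EGFP/Rosa26 (Stra8 for short), and undifferentiated adult and ES cells of the 129SV background. The series title calls the adult cells multipotent adult germline stem cells and names the likeness of both transcriptomes as its subject. The labels give neither the way the cells were differentiated, nor feeder cells, nor the number of lines or cultures behind the replicates, and no animal ages, so p-values measure the spread between these samples. Differentiated Stra8 cells were not analysed here.

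In the G1 phase, D-type cyclins bind the kinases CDK4 and CDK6, and E-type cyclins bind CDK2. Together these kinases phosphorylate the retinoblastoma protein RB, which releases E2F transcription factors and lets the cell enter S phase. The INK4 proteins p16Ink4a and p15Ink4b, products of Cdkn2a and Cdkn2b, block CDK4 and CDK6, whereas the CIP/KIP proteins p21 and p27 (the products of Cdkn1a and Cdkn1b) chiefly restrain cyclin E-CDK2. Mouse ES cells are known for a short G1 phase, with little D-type cyclin activity and much cyclin E-CDK2 activity, and for a longer G1 phase once they differentiate.

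Values are log2 signals, so a difference of 1 is 2-fold, and a gene was called where its p, adjusted over all genes tested, was under 0.05. Levels of different genes were not set against each other, since each probe set has its own response. The medians of the arrays lay between 7.22 and 7.38. The mean correlation of an array with the other arrays of its group was between 0.992 and 0.998, and the lowest belonged to differentiated ES 129SV replicate 3. The labels were checked against 14 pluripotency genes. Of these, 12 fell and 1 rose in differentiated adult cells, where 32.2% of all genes fell and 27.5% rose. In differentiated ES cells 13 fell and none rose, where 27.3% of all genes fell and 27.9% rose. Each group was set against undifferentiated cells of the same origin. Pou5f1, a core pluripotency factor, averaged 10.09 ± 0.12 in differentiated adult and 9.46 ± 0.25 in differentiated ES cells (SD, n = 3 each), against 12.26 to 12.60 in the undifferentiated groups. Nanog was still at 11.40 in differentiated adult and 10.92 in differentiated ES cells, against 11.54 to 12.27 in undifferentiated groups.

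All 8 measured genes differed somewhere among the 6 groups by limma's moderated F-test, a call that 74.1% of all genes also had. For Ccne2 this call, with an adjusted p of 0.0279, was lost without either of 2 arrays. The adjusted p was 0.0732 without differentiated ES 129SV replicate 3 and 0.0529 without ES Stra8 replicate 2. The group means spanned at least 1 log2 unit for 6 of the 8 genes, against 27.6% of all genes, whose median span was 0.62. The span was 2.75 for Ccne1, 2.45 for Ccnd1, 1.53 for Cdkn2b, 1.35 for Cdkn2a, 1.11 for Cdkn1b, 1.10 for Ccnd2, 0.85 for Ccnd3 and 0.43 for Ccne2.

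**Figure D1:**
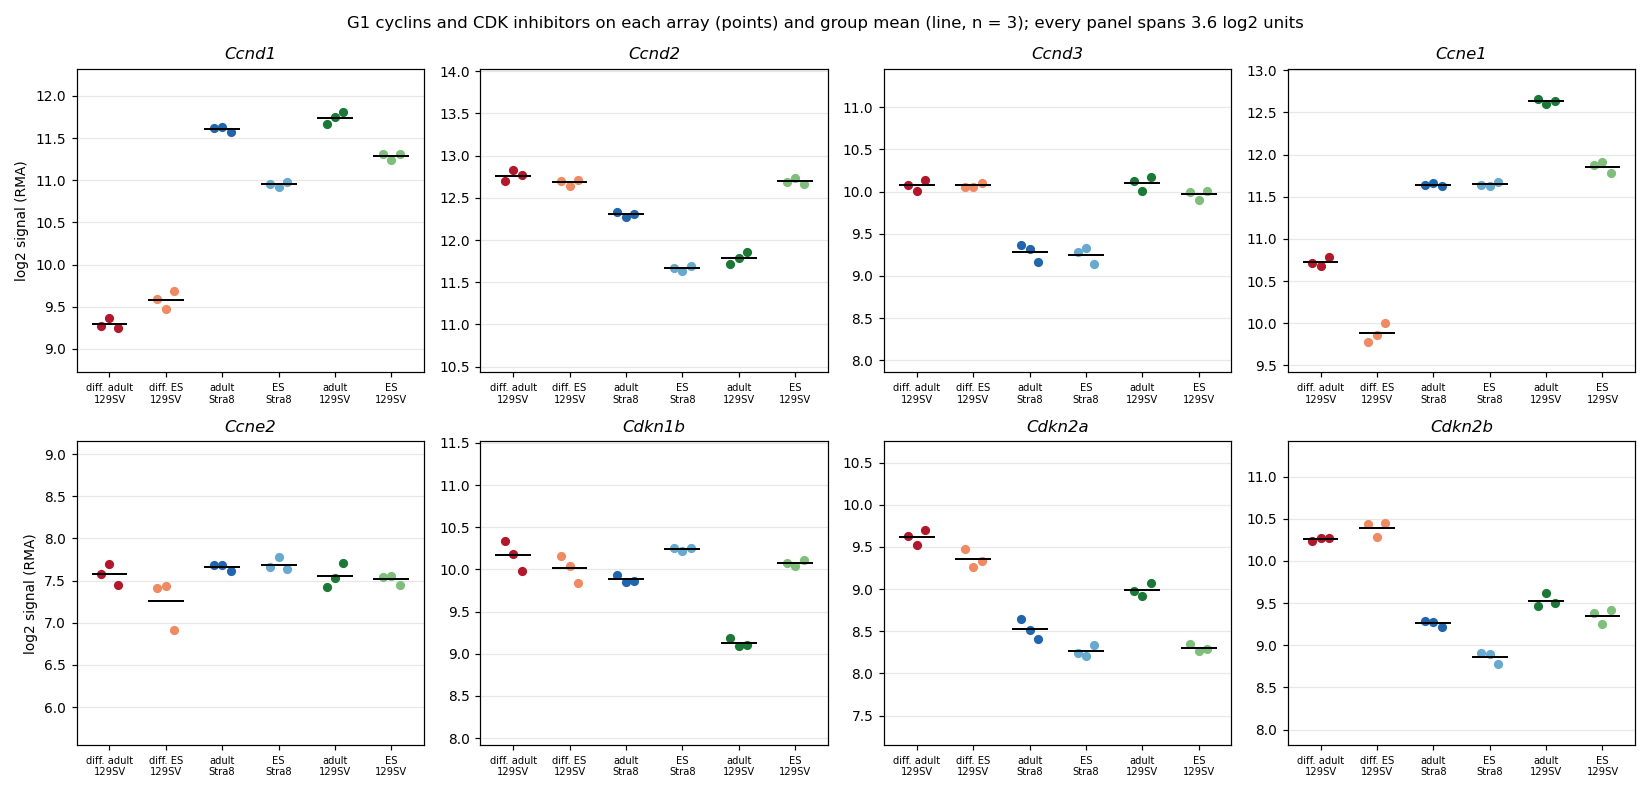
Log2 signal (vertical axis) of each measured gene on all 18 arrays, with groups along the horizontal axis, points for arrays and lines for group means (n = 3), and an equal span of the vertical axis in every panel. Ccnd1 and Ccne1 are lowest in both differentiated groups, Cdkn2a and Cdkn2b are highest there, and Cdkn1b is lowest in adult 129SV cells.

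Ccnd1 and Ccne1, the cyclins that varied most, fell in differentiated cells of both origins, while Cdkn2a and Cdkn2b rose in both. Ccnd2 and Cdkn1b rose about 2-fold in differentiated adult cells, and in ES cells neither passed the test. Of the 8 genes, 6 were called in adult cells (4 higher, 2 lower), where 59.7% of all genes were called (27.5% higher, 32.2% lower). In ES cells 4 were called (2 higher, 2 lower), against 55.2% of all genes (27.9% higher, 27.3% lower). Changes of at least 2-fold were called for 3 genes in adult cells, against 11.9% of all genes, and for 4 in ES cells, against 11.6%. The groups did not overlap for 6 genes in adult cells (62.6% of all genes) and for 6 in ES cells (58.0%).

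The overall balance of calls depended on the scaling of the arrays. In adult cells 5478 genes rose and 6428 fell with the deposited values, and 4764 rose and 8517 fell with each array centred on its median. In ES cells 5553 rose and 5452 fell, against 4045 and 6847 after centring, which moved every change there by -0.13. The direction and the call of the 6 called genes in adult cells and of the 4 in ES cells held with centred arrays and after quantile normalization.

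Ccnd1 encodes cyclin D1, the D-type cyclin through which mitogens such as growth factors drive the cell cycle. Its log2 signal was 9.27, 9.36 and 9.24 on the arrays of differentiated adult 129SV cells, against 11.67, 11.75 and 11.81 in undifferentiated adult 129SV cells. The values were 9.59, 9.47 and 9.68 in differentiated ES 129SV cells, against 11.32, 11.23 and 11.31 in undifferentiated ES 129SV cells. Every differentiated array was below every undifferentiated array. The change was -2.45 in adult cells (SE 0.06, adjusted p = 4.71e-15), or 5.47-fold lower, and -1.70 in ES cells (SE 0.06, adjusted p = 2.50e-13), or 3.26-fold lower. The fall was larger in adult cells, by -0.75 in the test of the difference (SE 0.08, adjusted p = 2.10e-06).

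Ccnd2 encodes cyclin D2, which in mice is needed for the growth of ovarian granulosa cells and for full testis size. Its signal was 12.70, 12.83 and 12.77 in differentiated adult cells, against 11.72, 11.78 and 11.86 in undifferentiated adult cells. In differentiated ES cells it was 12.70, 12.64 and 12.71, against 12.69, 12.74 and 12.66 in undifferentiated ES cells. The adult groups were apart and the ES groups overlapped. Ccnd2 rose by 0.98 in adult cells (SE 0.05, adjusted p = 6.41e-11), or 1.97-fold. In ES cells the change was -0.01 (95% interval -0.12 to 0.10, adjusted p = 0.876), which became -0.14 with centred arrays (adjusted p = 0.0429) and 0.07 after quantile normalization. The responses differed by 0.99 between the origins (SE 0.07, adjusted p = 1.92e-08).

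Ccnd3, which encodes cyclin D3, the D-type cyclin best known from lymphocytes and red cell precursors, did not pass the test in either origin. Its mean was 10.07 ± 0.07 in differentiated adult cells, against 10.10 ± 0.09 in undifferentiated adult cells, and 10.07 ± 0.03 in differentiated ES cells, against 9.97 ± 0.06 in undifferentiated ES cells (SD, n = 3 each). The 95% interval of the change was -0.17 to 0.12 in adult cells and -0.04 to 0.25 in ES cells, so changes of 2-fold lay outside both. The sign in ES cells was negative with centred arrays (-0.02).

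Ccne1 encodes cyclin E1, which activates CDK2 at the border of G1 and S phase. Its signal was 10.72, 10.68 and 10.79 in differentiated adult cells, against 12.66, 12.60 and 12.63 in undifferentiated adult cells. It was 9.78, 9.86 and 9.998 in differentiated ES cells, against 11.87, 11.91 and 11.78 in undifferentiated ES cells. All differentiated arrays lay below all undifferentiated ones. The change was -1.90 in adult cells (SE 0.06, adjusted p = 6.02e-14), or 3.73-fold lower, and -1.98 in ES cells (SE 0.06, adjusted p = 2.54e-14), or 3.94-fold lower. The responses differed by 0.08, with a 95% interval of -0.10 to 0.25 and an adjusted p of 0.468.

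Ccne2 encodes cyclin E2, the second CDK2 partner of this type, and was the least variable of the 8 genes. At 7.54, its mean over the 18 arrays was close to the array medians of 7.22 to 7.38. No detection call was used, so the small span cannot be read as steady expression. Its signal was 7.58, 7.69 and 7.45 in differentiated adult cells, against 7.42, 7.53 and 7.71 in undifferentiated adult cells. It was 7.41, 7.44 and 6.92 in differentiated ES cells, against 7.55, 7.55 and 7.44 in undifferentiated ES cells. The array at 6.92 was differentiated ES 129SV replicate 3, whose correlation with its group was the lowest of all. The change was 0.02 in adult cells (adjusted p = 0.902) and -0.26 in ES cells (95% interval -0.50 to -0.02, adjusted p = 0.0647). The ES value passed the threshold without differentiated ES 129SV replicate 1 (-0.33, adjusted p = 0.0314), without replicate 2 (-0.35, adjusted p = 0.0206), with centred arrays (-0.38, adjusted p = 0.00925) and after quantile normalization (-0.40, adjusted p = 0.00839). It was -0.09 without replicate 3.

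Among the inhibitors, Cdkn1b encodes p27, a CIP/KIP protein that holds cyclin E-CDK2 in check in resting cells and is governed largely through degradation of the protein. Its signal was 10.34, 10.18 and 9.98 in differentiated adult cells, against 9.18, 9.09 and 9.10 in undifferentiated adult cells. It was 10.16, 10.04 and 9.84 in differentiated ES cells, against 10.07, 10.04 and 10.11 in undifferentiated ES cells. The adult groups did not overlap, and the ES groups did. The change was 1.04 in adult cells (SE 0.08, adjusted p = 9.06e-09), or 2.06-fold, and -0.06 in ES cells (95% interval -0.24 to 0.12, adjusted p = 0.580). The difference of 1.10 between the responses passed the test (SE 0.12, adjusted p = 1.11e-06). Undifferentiated adult 129SV cells were the lowest of the 6 groups in this probe set, and the other 5 means lay between 9.88 and 10.24. A dimmer second probe set of Cdkn1b gave 0.66 in adult cells (adjusted p = 2.22e-05), -0.13 in ES cells (adjusted p = 0.288) and 0.79 for the difference (adjusted p = 0.000245).

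Cdkn2a yields p16Ink4a and, from an upstream start and another reading frame, p19Arf, which stabilises p53 by binding MDM2. The annotation of RefSeq lists a start for each message under 1 symbol, so a change of this probe set cannot be assigned to either message here. Its signal was 9.63, 9.52 and 9.70 in differentiated adult cells, against 8.97, 8.91 and 9.07 in undifferentiated adult cells. It was 9.47, 9.27 and 9.34 in differentiated ES cells, against 8.35, 8.26 and 8.29 in undifferentiated ES cells. The groups were apart in both origins. Cdkn2a rose by 0.63 in adult cells (SE 0.07, adjusted p = 1.13e-06), or 1.55-fold, and by 1.06 in ES cells (SE 0.07, adjusted p = 1.80e-09), or 2.08-fold. The adult response was smaller by -0.43 (SE 0.10, adjusted p = 0.00314).

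Cdkn2b, the neighbour of Cdkn2a, encodes p15Ink4b, an inhibitor known to be induced by TGF-beta. Its signal was 10.24, 10.27 and 10.27 in differentiated adult cells, against 9.47, 9.63 and 9.50 in undifferentiated adult cells. It was 10.44, 10.29 and 10.45 in differentiated ES cells, against 9.38, 9.26 and 9.42 in undifferentiated ES cells. No differentiated array overlapped with the undifferentiated arrays of its origin. Cdkn2b rose by 0.73 in adult cells (SE 0.06, adjusted p = 2.93e-08), or 1.66-fold, and by 1.04 in ES cells (SE 0.06, adjusted p = 3.23e-10), or 2.06-fold. As for Cdkn2a, the adult response was smaller, by -0.31 (SE 0.09, adjusted p = 0.00971).

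**Figure D2:**
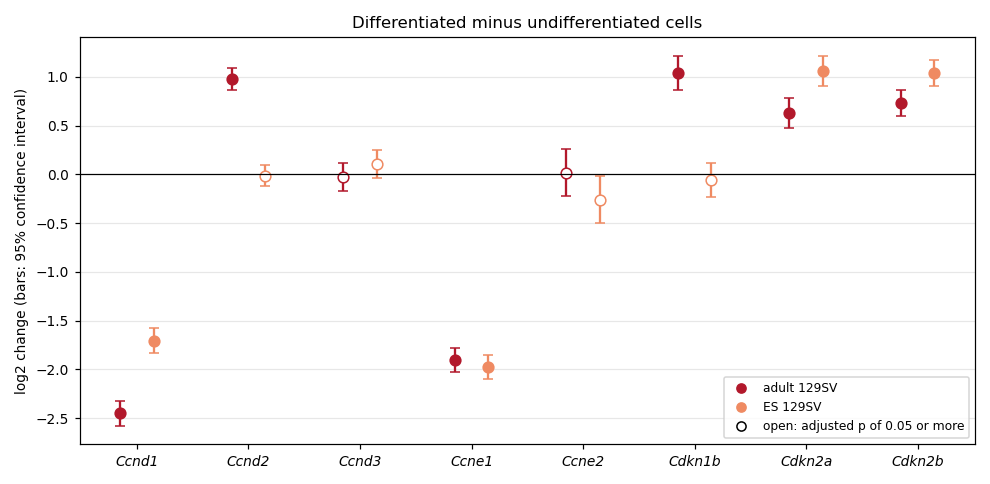
Log2 change of each gene (horizontal axis) in differentiated minus undifferentiated cells, in adult and ES cells of the 129SV background, with 95% confidence intervals and open points where the adjusted p was 0.05 or more. Ccnd2 and Cdkn1b changed by 0.98 and 1.04 in adult cells and by -0.01 and -0.06 in ES cells, and the Ccnd2 value in ES cells was -0.14 with centred arrays and 0.07 after quantile normalization.

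Of the 8 genes, 5 had a response to differentiation that differed between adult and ES cells in the interaction test (2 more positive, 3 more negative in adult cells), against 45.7% of all genes (24.2% more positive, 21.5% more negative). These 5 were Ccnd1, Ccnd2, Cdkn1b, Cdkn2a and Cdkn2b. A difference of at least 2-fold was called for 1 of them, Cdkn1b, and for 6.76% of all genes.

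The promoters of both INK4 genes are shown because the genes lie side by side and both rose with differentiation, and that of Ccne1 because it had the widest span. They are the 250 bases before each annotated start, from RefSeq on GRCm38.p6, and all lie on the minus strand. The Cdkn2a windows cover chr4:89294620-89294869 (upstream start, the p19Arf message) and chr4:89282193-89282442 (downstream start, the p16Ink4a message), the Cdkn2b window chr4:89311033-89311282 and the Ccne1 window chr7:38107491-38107740. Capitals mark matches on either strand to 3 kinds of motif, which were chosen with the sequences in view. These are the E2F words TTTCCCGC, TTTCGCGC, TTTGCCGC and TTTGGCGC, the GC box GGGCGG, and the cyclic AMP response element TGACGTCA.
Cdkn2a upstream start: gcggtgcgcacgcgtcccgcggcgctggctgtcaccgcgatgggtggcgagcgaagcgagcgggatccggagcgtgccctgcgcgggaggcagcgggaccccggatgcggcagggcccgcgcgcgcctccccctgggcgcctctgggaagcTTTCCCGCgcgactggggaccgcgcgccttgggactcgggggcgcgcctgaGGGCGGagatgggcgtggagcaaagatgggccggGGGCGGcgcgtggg
Cdkn2a downstream start: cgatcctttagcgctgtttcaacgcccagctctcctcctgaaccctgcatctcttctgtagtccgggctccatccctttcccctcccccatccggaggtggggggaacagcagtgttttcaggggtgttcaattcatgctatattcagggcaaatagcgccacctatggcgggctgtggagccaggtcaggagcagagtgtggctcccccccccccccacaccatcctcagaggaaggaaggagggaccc
Cdkn2b: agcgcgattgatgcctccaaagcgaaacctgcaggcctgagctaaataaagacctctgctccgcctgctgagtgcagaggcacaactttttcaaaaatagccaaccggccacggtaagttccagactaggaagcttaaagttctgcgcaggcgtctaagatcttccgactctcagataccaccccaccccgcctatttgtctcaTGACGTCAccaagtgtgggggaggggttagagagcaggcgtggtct
Ccne1: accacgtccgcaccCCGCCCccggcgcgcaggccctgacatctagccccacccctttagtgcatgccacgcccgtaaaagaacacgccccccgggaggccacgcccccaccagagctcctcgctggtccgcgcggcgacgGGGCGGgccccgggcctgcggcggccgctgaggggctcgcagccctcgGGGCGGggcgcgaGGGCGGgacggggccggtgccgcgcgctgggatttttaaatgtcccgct
The upstream Cdkn2a window holds 1 E2F word, 99 to 92 bases before the start, and 2 GC boxes. The downstream Cdkn2a window holds none of these motifs, the Cdkn2b window holds 1 cyclic AMP response element, and the Ccne1 window holds 4 GC boxes. Of 32851 promoter windows of this length, 1.86% hold one of the E2F words, 32.7% a GC box and 1.55% the cyclic AMP response element. The Cdkn2b start lies 16413 bases upstream of the first Cdkn2a start, and both Cdkn2a starts lie 12427 bases apart.

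After differentiation, adult and ES cells of the 129SV background differed by less than 2-fold in every measured gene. Ccne1 was higher by 0.85 in differentiated adult cells than in differentiated ES cells (SE 0.06, adjusted p = 1.31e-08). Ccne2 (0.32, adjusted p = 0.0407) and Cdkn2a (0.26, adjusted p = 0.0133) were also higher and Ccnd1 lower (-0.29, adjusted p = 0.00114). These 4 calls, 3 higher and 1 lower, compare with 32.2% of all genes called (19.4% higher, 12.8% lower). Differences of at least 2-fold were called for 1.27% of all genes and 0 of the 8. The groups were apart for 5 genes, against 37.6% of all genes.

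Of these 4 calls, that of Ccne1 was the only one made in every alternative run. In this pair of groups, arrays of the same replicate number had correlated deviations (r of 0.15, 0.14 and 0.44). Replicates 1 and 2 correlated better with another number, so a pairing is not established. A fit to the 6 arrays with the replicate block called only Ccne1 (adjusted p = 0.000572). In that fit the adjusted p was 0.0622 for Ccnd1, 0.0516 for Ccne2 and 0.0677 for Cdkn2a. Without the block the 6-array fit also called 1 gene. Cdkn2a was not called without differentiated ES 129SV replicate 2 (adjusted p = 0.0557) or without differentiated adult 129SV replicate 3 (adjusted p = 0.0556). It was 0.13 with array weights (adjusted p = 0.128) and 0.18 after quantile normalization (adjusted p = 0.0553), not called in either. Ccne2 was not called in 8 of the 18 fits that left out 1 array, and was 0.15 without differentiated ES 129SV replicate 3 (adjusted p = 0.208). Its call was also lost after quantile normalization (adjusted p = 0.0550) and with centred arrays (adjusted p = 0.0535). Conversely, Cdkn2b was called without differentiated ES 129SV replicate 2 (-0.18, adjusted p = 0.0413) and Cdkn1b without differentiated adult 129SV replicate 3 (0.25, adjusted p = 0.0270). Quantile normalization (-0.21, adjusted p = 0.0301) and array weights (-0.16, adjusted p = 0.0280) also gave a call for Cdkn2b.

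Undifferentiated adult and ES cells were compared within each background. Adult cells had more Ccnd1, Cdkn2a and Cdkn2b and less Cdkn1b than ES cells in both backgrounds. Ccnd2 was lower in adult cells of the 129SV background and higher in adult cells of the Stra8 background, and Ccne1 was higher in adult cells of the 129SV background. In the Stra8 background 5 of 8 genes were called (4 higher, 1 lower), against 28.3% of all genes (13.2% higher, 15.1% lower). In the 129SV background 6 were called (4 higher, 2 lower), against 46.1% (23.0% higher, 23.1% lower). The groups were apart for 5 genes in the Stra8 background (47.6% of all genes) and for 6 in the 129SV background (56.8%). None of these differences reached 2-fold, a size called for 0.752% of all genes in the Stra8 background and for 3.94% in the 129SV background.

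For Ccnd2, the signal was 12.34, 12.27 and 12.31 in adult Stra8 cells, against 11.67, 11.64 and 11.69 in ES Stra8 cells. Together with the 129SV values above, this put ES 129SV cells highest and ES Stra8 cells lowest of the undifferentiated groups. The difference between adult and ES cells was 0.64 in the Stra8 background (SE 0.05, adjusted p = 1.78e-07), or 1.56-fold, and -0.91 in the 129SV background (SE 0.05, adjusted p = 5.39e-10), or 1.88-fold lower. The difference of 1.55 between the backgrounds passed the test (SE 0.07, adjusted p = 6.71e-11).

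Ccne1 was at 11.64, 11.66 and 11.63 in adult Stra8 cells, against 11.64, 11.63 and 11.68 in ES Stra8 cells. These arrays overlapped, and the difference was -0.0041 with a 95% interval of -0.13 to 0.12. In the 129SV background adult cells were 1.71-fold higher (0.77, SE 0.06, adjusted p = 1.09e-08), and the difference between the backgrounds was -0.78 (SE 0.08, adjusted p = 6.68e-07).

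Ccnd1 was at 11.62, 11.64 and 11.57 in adult Stra8 cells, against 10.96, 10.92 and 10.98 in ES Stra8 cells, and no array overlapped. Adult cells were 1.58-fold higher in the Stra8 background (0.66, SE 0.06, adjusted p = 4.57e-07) and 1.37-fold higher in the 129SV background (0.46, SE 0.06, adjusted p = 7.27e-06). The difference of 0.20 between the backgrounds had an adjusted p of 0.0650, and was called without differentiated ES 129SV replicate 2 (adjusted p = 0.0418) or 3 (adjusted p = 0.0369) or without adult 129SV replicate 3 (adjusted p = 0.0452). It was also called with centred arrays, after quantile normalization and with array weights (adjusted p = 0.0103). Leaving out dim genes (adjusted p = 0.0368) or a trend in the prior variance (adjusted p = 0.0287) gave a call too. A fit to the compared groups only did the same (adjusted p = 0.0292).

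Cdkn1b was at 9.94, 9.86 and 9.86 in adult Stra8 cells, against 10.25, 10.22 and 10.25 in ES Stra8 cells. Adult cells lay below ES cells on every array of both backgrounds. The difference was -0.36 in the Stra8 background (SE 0.08, adjusted p = 0.00352), or 1.28-fold lower, and -0.95 in the 129SV background (SE 0.08, adjusted p = 7.51e-08), or 1.93-fold lower. The backgrounds differed by 0.59 (SE 0.12, adjusted p = 0.000534), whereas the second Cdkn1b probe set gave 0.25 for this difference (adjusted p = 0.177). For adult against ES cells, that probe set gave -0.56 in the Stra8 background (adjusted p = 0.000445) and -0.81 in the 129SV background (adjusted p = 4.17e-06).

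Cdkn2a was at 8.65, 8.52 and 8.41 in adult Stra8 cells, against 8.25, 8.20 and 8.34 in ES Stra8 cells. The lowest adult array stood just above the highest ES array. Adult cells were higher by 0.26 in the Stra8 background (adjusted p = 0.0126) and by 0.68 in the 129SV background (1.61-fold, SE 0.07, adjusted p = 8.75e-07). The Stra8 call was lost without ES Stra8 replicate 2 (adjusted p = 0.0560) or without adult Stra8 replicate 1 (adjusted p = 0.0740). The backgrounds differed by -0.42 (SE 0.10, adjusted p = 0.00335).

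Cdkn2b was at 9.29, 9.28 and 9.21 in adult Stra8 cells, against 8.91, 8.89 and 8.78 in ES Stra8 cells, with a gap between the groups. The difference was 0.40 in the Stra8 background (SE 0.06, adjusted p = 0.000146) and 0.18 in the 129SV background (adjusted p = 0.0295). The 129SV call was lost without ES 129SV replicate 2 (adjusted p = 0.145), without adult 129SV replicate 2 (adjusted p = 0.139) and with centred arrays (adjusted p = 0.0919). It was also lost in a fit to the compared groups only (adjusted p = 0.0726). The backgrounds differed by 0.22 (adjusted p = 0.0586). This value was called without differentiated ES 129SV replicate 2 or 3, ES 129SV replicate 2 or adult 129SV replicate 2. The adjusted p was then between 0.0263 and 0.0480. Centring the arrays (adjusted p = 0.0223) or weighting them (adjusted p = 0.0148) also gave a call. So did leaving out dim genes (adjusted p = 0.0329) or a trend in the prior variance (adjusted p = 0.0342).

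**Figure D3:**
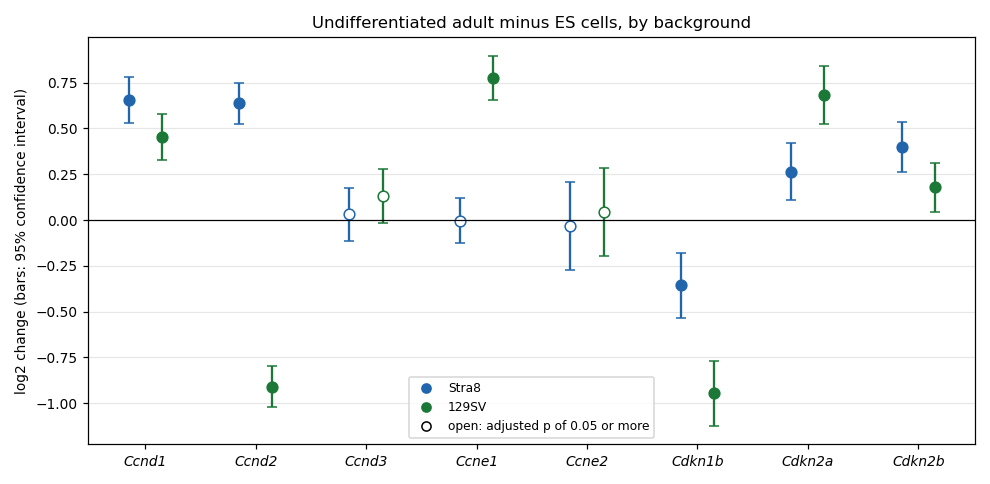
Log2 difference of each gene (horizontal axis) between undifferentiated adult and ES cells in the Stra8 and 129SV backgrounds, with 95% confidence intervals and open points where the adjusted p was 0.05 or more. Ccnd2 has opposite signs in the backgrounds (0.64 and -0.91), and the Ccne1 difference is 0.77 in the 129SV background, outside the interval of -0.13 to 0.12 in the Stra8 background.

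Neither Ccnd3 nor Ccne2 was called between adult and ES cells. The difference in Ccnd3 was 0.03 in the Stra8 background and 0.13 in the 129SV background (adjusted p = 0.131), the second of which was called after quantile normalization (0.19, adjusted p = 0.0390). The interaction test called 4 of the 8 genes between the backgrounds (Ccnd2 and Cdkn1b more positive, Ccne1 and Cdkn2a more negative in Stra8), against 43.1% of all genes (21.3% more positive, 21.8% more negative). A difference of at least 2-fold was called for 1, Ccnd2, and for 8.62% of all genes.

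Ccnd3 instead separated the backgrounds. Its signal was 9.36, 9.32 and 9.17 in adult Stra8 cells, against 10.12, 10.01 and 10.18 in adult 129SV cells. It was 9.28, 9.33 and 9.14 in ES Stra8 cells, against 9.9996, 9.90 and 10.01 in ES 129SV cells. All 6 Stra8 arrays were below all 12 arrays of the 129SV background, differentiated ones included. The share of all genes with such a gap was not counted. Between the backgrounds, 60.1% of all genes were apart in adult cells and 56.9% in ES cells. The Ccnd3 difference was -0.82 in adult cells (SE 0.07, adjusted p = 3.58e-08), or 1.77-fold lower, and -0.72 in ES cells (SE 0.07, adjusted p = 2.00e-07), or 1.65-fold lower. The adult and ES values of this difference were themselves -0.10 apart, with a 95% interval of -0.30 to 0.11 (adjusted p = 0.457).

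Between Stra8 and 129SV adult cells, 6 genes were called (2 higher, 4 lower), against 51.0% of all genes (24.2% higher, 26.8% lower). Between the ES cells 5 were called, all lower, against 41.4% (21.3% higher, 20.0% lower). At least 2-fold were 0 of the 8 in adult cells, against 4.89% of all genes, and 1 in ES cells, Ccnd2, against 4.54%. The groups were apart for 7 genes in adult cells (60.1% of all genes) and for 7 in ES cells (56.9%). In adult cells the other calls were Ccne1 at -0.99 (adjusted p = 6.31e-10), Cdkn1b at 0.76 (adjusted p = 8.10e-07), Ccnd2 at 0.52 (adjusted p = 3.51e-07), Cdkn2a at -0.46 (adjusted p = 5.82e-05) and Cdkn2b at -0.27 (adjusted p = 0.00180). The second Cdkn1b probe set gave 0.05 here (adjusted p = 0.721). In ES cells the other calls were Ccnd2 at -1.03 (adjusted p = 1.08e-10), Cdkn2b at -0.49 (adjusted p = 7.10e-06), Ccnd1 at -0.33 (adjusted p = 0.000193) and Ccne1 at -0.21 (adjusted p = 0.00753). Cdkn1b there was at 0.17 (adjusted p = 0.123), and was called higher with array weights (adjusted p = 0.0115). A fit to the compared groups only called Cdkn1b (adjusted p = 0.0136) and Ccne2 (0.18, adjusted p = 0.0384) higher. The second Cdkn1b probe set gave -0.20 there (adjusted p = 0.123). Ccnd1 in adult cells was at -0.13 (adjusted p = 0.0733). It passed without differentiated ES 129SV replicate 2 (adjusted p = 0.0487) or 3 (adjusted p = 0.0433) or without adult 129SV replicate 1 (adjusted p = 0.0440). Leaving out dim genes (adjusted p = 0.0451) or a trend in the prior variance (adjusted p = 0.0359) also gave a call. The comparisons of ES Stra8 and of adult 129SV cells with ES 129SV cells share the ES 129SV arrays.

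The other genes of the pathway were described by 6 lists. With differentiation, the median change of all genes was -0.08 in adult cells, where 27.5% of them rose and 32.2% fell, and 0.05 in ES cells, where 27.9% rose and 27.3% fell. The genes for S-phase entry, many of them E2F targets, fell with differentiation. Of 18 measured, 14 fell and none rose in adult cells (median -0.76), and 18 fell in ES cells (median -1.24). Rrm2, a subunit of ribonucleotide reductase, changed by -1.19 in adult and -1.88 in ES cells. Mcm5, part of the replicative helicase, changed by -1.04 in adult and -1.796 in ES cells. In differentiated adult against differentiated ES cells, 16 of the 18 were higher and none lower (median 0.58), where 19.4% of all genes were higher and 12.8% lower (median -0.03), with Mcm5 at 1.07 and Cdc6, a loader of the helicase, at 0.999. The change with differentiation was more positive in adult than in ES cells for 14 of the 18 in the interaction test, against 24.2% of all genes. Markers of pluripotent cells and fibroblasts moved with this comparison too. In differentiated adult against differentiated ES cells, 9 of 14 pluripotency genes were higher and 2 lower (median 0.49), and 15 of 21 fibroblast genes were higher and 2 lower (median 0.34). The mean of the pluripotency list was 9.67 to 9.74 over the differentiated adult arrays, against 9.23 to 9.29 over the differentiated ES arrays. The part of these markers in the S-phase values was not tested.

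Among undifferentiated cells the medians of the S-phase genes differed less, while single genes moved in both directions. For adult against ES cells the median was 0.01 in the Stra8 background (4 higher, 2 lower), where it was -0.0033 over all genes (13.2% higher, 15.1% lower). It was 0.04 in the 129SV background (6 higher, 2 lower), against 0.06 over all genes (23.0% higher, 23.1% lower). For ES Stra8 against ES 129SV cells it was 0.12 (8 higher, 1 lower), against -0.01 over all genes (21.3% higher, 20.0% lower). This count depended on the scaling, with 4 higher and 2 lower with centred arrays, and 5 higher and 2 lower after quantile normalization. For adult Stra8 against adult 129SV cells the median was 0.04 (6 higher, 3 lower), against -0.08 over all genes (24.2% higher, 26.8% lower). The Stra8 count for adult against ES cells also moved, to 7 higher with array weights and to 0 lower after quantile normalization. Tk1, a thymidine kinase made in S phase, was 0.72 higher in adult than in ES 129SV cells, and Pola1, a subunit of DNA polymerase alpha, was at -0.63. In adult Stra8 against adult 129SV cells, Pola1 was at 1.135, Mcm3 at 0.77 and Tk1 at -1.03.

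Of 15 genes of the RB and E2F list, 7 rose and 7 fell with differentiation in adult cells (median -0.23, all genes -0.08), and 2 rose and 10 fell in ES cells (median -0.57, all genes 0.05). Rbl2, the RB relative p130 of resting cells, rose by 1.22 in adult and 0.65 in ES cells. Rb1 itself rose by 1.45 in adult cells, and this response was more positive than in ES cells by 0.97 (adjusted p = 2.34e-05). Before differentiation, Rb1 was at -0.90 in adult against ES 129SV cells (adjusted p = 8.69e-07), so the adult rise began from a lower level. E2f8, a repressor of the E2F family, changed by -1.55 in adult and -1.003 in ES cells, and E2f4 by -1.26 in adult and -0.92 in ES cells.

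Of 17 CDK partners and other inhibitors, 6 rose and 7 fell in adult cells (median -0.05, all genes -0.08), and 4 rose and 9 fell in ES cells (median -0.21, all genes 0.05). The adult median was thus near that of all genes. Cdkn1c, which encodes the CIP/KIP inhibitor p57, rose by 0.79 in adult and 0.89 in ES cells. Cks1b, which helps to mark p27 for degradation, changed by -1.03 in adult and -0.74 in ES cells. Cul1, the scaffold of the ubiquitin ligase that acts on p27, rose by 1.12 in adult and 0.62 in ES cells, and its partner Skp2 fell by 0.52 in adult cells. Between undifferentiated adult and ES cells, Cdkn1c was 0.98 higher in the Stra8 background and changed by -0.93 in the 129SV background, a difference of 1.91 between the backgrounds (adjusted p = 8.47e-11).

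Genes of the p53 pathway, on which p19Arf acts, rose more often than they fell. Of 20, 16 rose and 1 fell in adult cells (median 0.57, all genes -0.08), where 27.5% of all genes rose and 32.2% fell. In ES cells 16 rose and 3 fell (median 0.56, all genes 0.05), where 27.9% of all genes rose and 27.3% fell. Btg2, an antiproliferative p53 target, rose by 2.11 in adult and 2.25 in ES cells. Eda2r, a receptor gene induced by p53, rose by 1.67 in adult cells. The gene that fell in adult cells was Aen, at -0.56, and 2 genes fell there with centred arrays. Of the 3 that fell in ES cells, the largest changes were those of Sesn2 (-0.79) and Gadd45a (-0.56).

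Of 14 regulators of the INK4 locus, 8 rose and 3 fell in adult cells (median 0.31, all genes -0.08), and 6 rose and 3 fell in ES cells (median 0.19, all genes 0.05). Polycomb proteins are known to repress this locus. Among their genes, Bmi1 rose by 1.51 in adult cells and Cbx8 by 1.18 in adult and 0.91 in ES cells, whereas Eed changed by -0.85 in adult and -1.39 in ES cells. Of 13 genes of the MYC, FOXO and SMAD inputs, 7 rose and 6 fell in adult cells (median 0.24, all genes -0.08), and 7 rose and 4 fell in ES cells (median 0.26, all genes 0.05). Smad3, a transducer of TGF-beta signals, rose by 1.14 in adult and 1.55 in ES cells. Tgfb2 rose by 1.25 in adult and 1.76 in ES cells, and Tgfb1 changed by -1.47 in adult and -2.00 in ES cells. Mycn fell by 1.42 in adult cells, and Myc fell by 1.47 in ES cells.

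Markers of other cell types moved with several of these comparisons. For RNA of a mixed culture, fewer cells of a type and less RNA per cell cannot be told apart. Of 21 fibroblast genes, 5 rose and 16 fell with differentiation in adult cells (median -0.64), where 27.5% of all genes rose and 32.2% fell. In ES cells 1 fibroblast gene rose and 18 fell (median -2.07), where 27.9% of all genes rose and 27.3% fell. The mean of the list over the arrays was 8.99 to 9.05 in differentiated adult and 8.43 to 8.51 in differentiated ES cells. It was 10.08 to 10.14 in adult Stra8, 9.29 to 9.37 in ES Stra8, 9.67 to 9.70 in adult 129SV and 10.50 to 10.54 in ES 129SV cells.

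Between undifferentiated groups, the medians of the fibroblast list and of the endoderm list had the sign of Ccnd2 in all 4 comparisons. So did the median of the INK4 locus regulators, with smaller values. For adult against ES cells it was 0.11 in the Stra8 and -0.09 in the 129SV background. For Stra8 against 129SV cells it was -0.14 in ES and 0.07 in adult cells. The 4 comparisons are drawn from the same 4 groups and are not separate agreements. Of all genes, 13.2% were higher and 15.1% lower in adult against ES Stra8 cells, and 23.0% higher and 23.1% lower in adult against ES 129SV cells. In ES Stra8 against ES 129SV cells 21.3% were higher and 20.0% lower. In adult Stra8 against adult 129SV cells 24.2% were higher and 26.8% lower. The fibroblast list was higher in adult than in ES Stra8 cells (21 of 21 genes, median 0.75, Ccnd2 0.64) and lower in adult than in ES 129SV cells (15 lower, 2 higher, median -0.81, Ccnd2 -0.91). It was also lower in ES Stra8 than in ES 129SV cells (21 of 21, median -0.996, Ccnd2 -1.03). Endoderm genes were higher in adult than in ES Stra8 cells (10 of 14, none lower, median 0.60), and lower in adult than in ES 129SV cells (9 lower, none higher, median -0.48). They were also lower in ES Stra8 than in ES 129SV cells (8 lower, none higher, median -0.34). In adult Stra8 against adult 129SV cells, where Ccnd2 was at 0.52, 11 fibroblast genes were higher and 5 lower (median 0.32), and 9 endoderm genes were higher and 1 lower (median 0.49). With differentiation in adult cells the median of the fibroblast list was -0.64 while Ccnd2 rose by 0.98, and in ES cells the median was -2.07 while Ccnd2 was at -0.01. Prrx1, a mesenchymal transcription factor, was 0.95 higher in adult than in ES Stra8 cells and at -1.45 in adult against ES 129SV cells. The part of these cells in the values of Ccnd2 was not tested.

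Endoderm genes rose with differentiation, 11 of 14 in adult cells (1 fell, median 3.30), where 27.5% of all genes rose. In ES cells 13 of 14 endoderm genes rose (median 2.13), where 27.9% of all genes did. The mean of this list was 10.34 to 10.36 in differentiated adult and 10.24 to 10.28 in differentiated ES cells, against 7.55 to 8.36 over the undifferentiated arrays. Gata6, a defining endoderm factor, averaged 12.41 in differentiated adult and 11.94 in differentiated ES cells, against 7.88 to 8.83 in undifferentiated groups. The part of endoderm in the values of the cyclins and inhibitors was not tested.

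The counts of the next 3 lists stand beside 27.5% of all genes that rose and 32.2% that fell in adult cells (median -0.08). In ES cells 27.9% of all genes rose and 27.3% fell (median 0.05). Of 9 genes of blood and macrophages, 2 rose and 6 fell both in adult cells (median -0.54) and in ES cells (median -0.24). Ptprc, the common leukocyte gene, averaged between 5.51 and 6.06 in all groups. Csf1r, a receptor gene of macrophages, went the other way from most of this list. It averaged 7.66 in differentiated adult cells, against 6.78 in undifferentiated adult cells (0.88, adjusted p = 1.31e-08), and 8.68 in differentiated ES cells, against 7.05 in undifferentiated ES cells (1.63, adjusted p = 4.99e-12). Of 10 genes of spermatogonial stem cells, 3 rose and 6 fell in adult cells (median -0.48), and 2 rose and 5 fell in ES cells (median -0.28). Of 8 measured genes of somatic testis cells, 3 rose in adult cells (median 0.16) and 4 in ES cells (median 0.31), and none fell. Gata4 stands both in this list and in the endoderm list, and its share in the mean was not tested. The mean of the testis list moved more than its median. It was 7.55 to 7.61 over the differentiated adult arrays, against 6.79 to 6.97 over the undifferentiated adult arrays, and 7.35 to 7.49 in differentiated ES cells, against 6.64 to 6.76 in undifferentiated ES cells. The part of these cell types in the values of the cyclins and inhibitors was not tested.

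**Figure D4:**
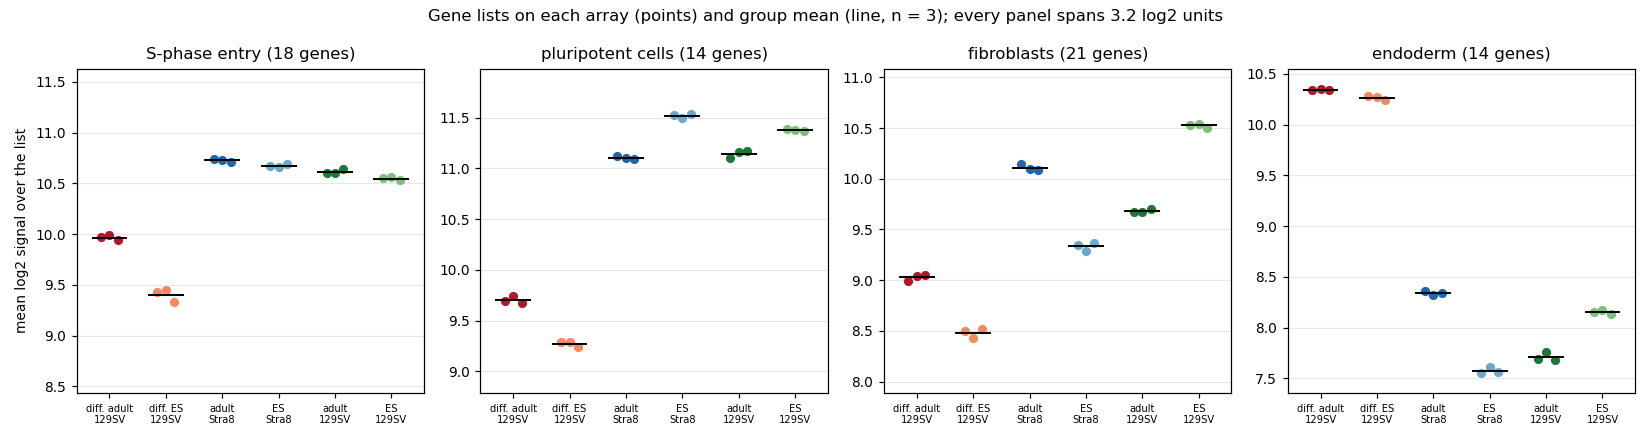
Mean log2 signal over the S-phase entry, pluripotency, fibroblast and endoderm lists (vertical axis) on each array, with groups along the horizontal axis and lines for group means (n = 3). The S-phase list lies at 9.94 to 9.99 in differentiated adult and 9.33 to 9.45 in differentiated ES cells, below every undifferentiated array, and the fibroblast list differs among the undifferentiated groups.

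Over the 18 arrays, Cdkn2a and Cdkn2b correlated with r = 0.92 and Ccnd1 and Ccne1 with r = 0.88, while Ccnd1 and Cdkn2b correlated with r = -0.79. Ccnd2 and Ccnd3 (r = 0.48) and Ccnd1 and Ccnd2 (r = -0.60) did not run as closely. These values describe 6 groups of 3 arrays, which share their group means, and they are no test.

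Genes of like pattern were sought among 5487 genes whose group means spanned at least 1 log2 unit. The closest to Ccnd1 were Camkv (r = 0.99) and Lyz2 (r = 0.99), and the closest to Ccne1 were Pdzd4 (r = 0.99) and Ebna1bp2 (r = 0.99). For Ccnd2 they were Gpc4 (r = 0.98) and Cdk14 (r = 0.98), and for Cdkn1b Paip1 (r = 0.98) and Aldh6a1 (r = 0.95). For Cdkn2a they were Nes (r = 0.97) and Cuedc1 (r = 0.97), and for Cdkn2b Chst14 (r = 0.99) and Epas1 (r = 0.98), each over 18 arrays.

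The order of the group means showed which groups stood next to each other without a gap. For Ccnd1 each of the 6 groups was apart from its neighbour, in the order adult 129SV, adult Stra8, ES 129SV, ES Stra8, differentiated ES and differentiated adult cells. For Ccne1 the only neighbours that overlapped were ES Stra8 and adult Stra8 cells. For Cdkn2a these were ES 129SV and ES Stra8 cells, and for Cdkn2b ES 129SV and adult Stra8 cells. For Ccnd2 the top 3 groups, differentiated adult, ES 129SV and differentiated ES cells, overlapped with their neighbours. For the brighter probe set of Cdkn1b the top 5 groups overlapped with their neighbours, and only adult 129SV cells stood apart. In the second probe set adult Stra8 cells were at 6.70 ± 0.11 and adult 129SV cells at 6.65 ± 0.04 (SD, n = 3 each), a difference within that spread.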

How the data were processed

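The deposited table holds log2 signals. Per the submitters' processing notes, the authors used RMA and Affymetrix Expression Console, with no version named. Joint normalisation of the 18 arrays is not given in the sources used here. No detection call or background level was used. Of 35556 probe sets, 21789 had 1 gene symbol in the platform annotation, 1621 had several and 12146 were not named here. For the 999 genes with over 1 probe set, the one with the highest mean was used, which left 19938 genes.

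A linear model with 6 group means was fitted to the 18 arrays with limma 3.58.1 in R 4.3.3 (lmFit and eBayes, 12 residual and 3.78 prior degrees of freedom). P-values were adjusted by Benjamini-Hochberg over all genes within a comparison. Standard errors use the spread shared over all groups. The 3 arrays per group limit the precision. The script was tested on simulated data. No arrays held identical values.

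The members and the gene lists were chosen with earlier results of these data known. The lists covered CDK partners and other inhibitors, RB and E2F, S-phase entry, the p53 pathway, INK4 locus regulators, and MYC, FOXO and SMAD inputs, with markers of pluripotent cells, fibroblasts, endoderm, blood and macrophages, spermatogonial stem cells and somatic testis cells. Named were all members and, per list and comparison, at most the 2 called genes with the largest positive and the 2 with the largest negative change of at least 0.5, and genes of like pattern by Pearson correlation.

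Same-numbered replicates correlated in their deviations from group means between -0.15 and 0.44 over 21 pairs. Only for differentiated adult against differentiated ES cells were all 3 pairs over 0.1 (0.15, 0.14 and 0.44). Of these, replicate 3 correlated best with its own number, whereas replicates 1 and 2 correlated better with another number. The values over 0.1 were the reason for running a fit with the replicate block there. They do not establish a pairing, and the labels give none.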

Additional observations from a re-analysis of the deposited data

Results flagged for a closer look

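The response to differentiation differed between adult and ES cells of the 129SV background for 5 genes, by an interaction test in the limma fit. Given as adult minus ES, the difference was -0.75 for Ccnd1 (adjusted p = 2.10e-06), 0.99 for Ccnd2 (adjusted p = 1.92e-08) and 1.10 for Cdkn1b (adjusted p = 1.11e-06). It was -0.43 for Cdkn2a (adjusted p = 0.00314) and -0.31 for Cdkn2b (adjusted p = 0.00971). For Cdkn1b and Ccnd2 the levels of differentiated adult and differentiated ES cells overlapped, and the undifferentiated groups were apart. Undifferentiated adult against ES cells were at 0.46 for Ccnd1, 0.68 for Cdkn2a and 0.18 for Cdkn2b. Differentiated adult against differentiated ES cells were at -0.29 for Ccnd1, 0.26 for Cdkn2a and -0.13 for Cdkn2b, the last not called.

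The difference between undifferentiated adult and ES cells differed between the backgrounds for 4 genes by the same kind of test. Given as Stra8 minus 129SV, it was 1.55 for Ccnd2 (adjusted p = 6.71e-11), -0.78 for Ccne1 (adjusted p = 6.68e-07), 0.59 for Cdkn1b (adjusted p = 0.000534) and -0.42 for Cdkn2a (adjusted p = 0.00335). All 3 arrays of adult cells moved above ES cells for Ccnd2 in the Stra8 background and below them in the 129SV background.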

How the results depend on the processing

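Of 72 member values, none of those called changed sign under the alternatives run, which gave 1880 values (1788 unchanged in direction and call, 28 no longer called, 38 newly called and 26 with the opposite sign). The count of members called was within 1.5 times of that reported, except for differentiated adult against differentiated ES cells. There it was 4 in the fit to all 18 arrays and 1 in a fit to these groups only, with or without the replicate block, and the fit with the block was chosen after the data were seen. Genes called there numbered 6419 in the fit to all arrays and 3537 in the fit to these groups only. With the replicate block in the fit to all arrays, no count of members moved, and 7 of 21 pairs correlated best with their own number. For adult against ES Stra8 cells, 5638 genes were called, and 8690 with array weights.

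The sign of values that were not called turned as follows. After quantile normalization Ccnd2 in differentiated ES cells was 0.066, Ccne2 in differentiated adult cells -0.10 and Ccne1 in adult against ES Stra8 cells 0.019. With centred arrays Ccnd3 in differentiated ES cells was -0.022, Ccne2 in differentiated adult cells -0.0805 and the Ccne1 value 0.0061. With array weights Cdkn1b in differentiated ES cells was 0.069 and the Ccne1 value 0.0027. The second Cdkn1b probe set gave -0.019 for differentiated adult against differentiated ES cells and -0.20 for ES Stra8 against ES 129SV cells. Causes were not tested.

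Leaving out each array in turn, Ccnd2 in differentiated ES cells ran from -0.029 to 0.0105 and Cdkn1b there from -0.13 to 0.0255. In differentiated adult cells Ccnd3 ran from -0.078 to 0.0085 and Ccne2 from -0.048 to 0.098. Ccnd3 ran from -0.032 to 0.034 in differentiated adult against differentiated ES cells and from -0.024 to 0.089 in adult against ES Stra8 cells, where Ccne1 ran from -0.0145 to 0.011 and Ccne2 from -0.059 to 0.014. Ccne2 ran from -0.037 to 0.11 in adult against ES 129SV cells and from -0.14 to 0.0067 in the difference between backgrounds.

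Of 108 list counts, 25 moved by over 1.5 times in at least 1 of 7 alternatives. Among those printed, RB and E2F genes that rose in ES cells numbered 2, and 4 with array weights. P53 pathway genes that fell in adult cells numbered 1, and 2 with centred arrays or after quantile normalization. S-phase genes in adult against ES Stra8 cells were 4 higher and 2 lower, with 7 higher under array weights and 0 lower after quantile normalization. In ES Stra8 against ES 129SV cells they were 8 higher and 1 lower, with 4 higher and 2 lower under centred arrays.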
